A study of Rattus norvegicus with 6 samples.

Results

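AMPA receptors are the glutamate-gated channels that carry most fast excitatory transmission in the brain, and their subunits GluA1, GluA2, GluA3 and GluA4 are encoded by Gria1, Gria2, Gria3 and Gria4. The expression of these 4 genes was examined in the medial prefrontal cortex (mPFC) of rats killed 90 min after lysergic acid diethylamide (LSD), a hallucinogen that acts mainly through the serotonin 2A receptor. Members were all probe sets of the array to which the platform annotation gives exactly 1 of these symbols and no other gene. This rule found 10 probe sets among 8740 tested, and 4 genes among 4736 with a symbol of their own. The family was singled out because Gria3 was already known to differ between the groups on these arrays. The values that compare LSD with saline in the 4 genes are therefore given as a description, without a p-value, and their intervals give the spread of the arrays rather than a test.

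Male Sprague-Dawley rats received (+)-LSD tartrate intraperitoneally at 1.0 mg/kg or saline, and the labels give their weight but not their age. Each group was read on 3 Affymetrix arrays (Saline 1 to Saline 3, LSD 1 to LSD 3). By the labels the tissue of 4 animals per group was combined. A figure legend and the discussion of the paper give smaller pools, 1 for each array, and the discussion calls them independent replicates. Because these sources differ, the spread between the arrays of a group may be technical. Tissue blocks hold many cell types, and fewer cells of a type cannot be told apart from less RNA per cell. The free-text descriptions contradict the titles in one line, where saline and LSD are exchanged. Groups follow the titles and treatment labels, and if the descriptions were right, all signs below would be opposite.

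Saline 1 stood apart, with 78 probe sets that differed by over 1 log2 unit from the average of the remaining arrays, against 2 to 21 on each of those, and values without it are given where they matter. Of the markers of excitatory cortical neurons, 5 of 9 were measured and 3 lay above the median level of all tested probe sets, led by Nrgn, a calmodulin-binding postsynaptic protein, at the 99.4th percentile. The vesicular glutamate transporter Slc17a7 lay at the 36.9th percentile and Neurod1 at the 9.52nd. Over 9 lists of markers, 0 of the measured genes passed the test in limma by the brightest probe set. Of all genes 0.0211% passed (1 of 4736), so nothing is read from this count. The summed linear level of 10 of 14 choroid plexus and meninges markers ran from 2970 to 3150 on saline and from 2580 to 2820 on LSD arrays, without overlap. Of the 10 markers 4 were higher and 6 lower, and the brightest, the transthyretin gene Ttr, went from a mean of 10.42 to 9.93 log2 units. The mean deviation of the list from the mean of all arrays did not overlap either. It ran from 0.026 to 0.043 on saline and from -0.073 to -0.017 log2 units on LSD arrays. The summed linear level of 7 of 11 astrocyte markers ran from 6320 to 6440 and from 5970 to 6320. Before rounding this sum was lower on all LSD arrays. However, 4 of the 7 had a higher mean after LSD, and the mean deviation of the list overlapped between the groups. Striatal markers (11 of 14 measured) overlapped in their sum, at 1560 to 1630 and 1460 to 1590, while 9 of the 11 were lower and their mean deviation from the mean of all arrays did not overlap (0.060 to 0.092 on saline and -0.112 to -0.015 log2 units on LSD arrays). For beta-actin the signal of the 3' end exceeded that of the 5' end, a sign of RNA degradation when large, by 0.787 ± 0.0439 in saline and 0.687 ± 0.0412 log2 units in LSD arrays (SD, n = 3), without overlap. For GAPDH the values were 0.523 ± 0.0433 and 0.492 ± 0.0906 (SD, n = 3) and overlapped. The part of these shifts in the values below was not tested.

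An AMPA receptor is a tetramer, and its properties follow from its subunits. GluA1 has a long tail that is phosphorylated when synapses strengthen, and it is brought to synapses by activity. GluA2 is edited at the RNA level in its pore, which makes receptors that hold it nearly impermeable to calcium. GluA3 pairs mostly with GluA2, and GluA4 is expressed early in development and later in fast-spiking interneurons. In cortical pyramidal neurons most receptors combine GluA2 with GluA1 or GluA3. All 4 transcripts are spliced into flip and flop forms, and the files do not tell which form a probe set reads.

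Gria3 and Gria1 were higher on every LSD array in all of their probe sets, whereas Gria2 and Gria4 overlapped between the groups in all of theirs. Of the 10 probe sets, 8 had a higher and 2 a lower mean after LSD, with a median log2 change of 0.10, beside 0.0045 over all tested probe sets, of which 51.4% were higher. The groups did not overlap in 5 of the 10, all with LSD higher, where 6.58% of all probe sets were of this kind, and in 0 with LSD lower (3.79% of all). An adjusted p of 0.05 in limma was passed by 1 of the 10, a probe set of Gria3, beside 0.0686% of all tested probe sets (6 of 8740) in either direction and 0.0114% with LSD higher. This count was 0 when any 1 array other than Saline 1 was left out. Because the family was chosen on this comparison, nothing is read from these counts.

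**Figure D1:**
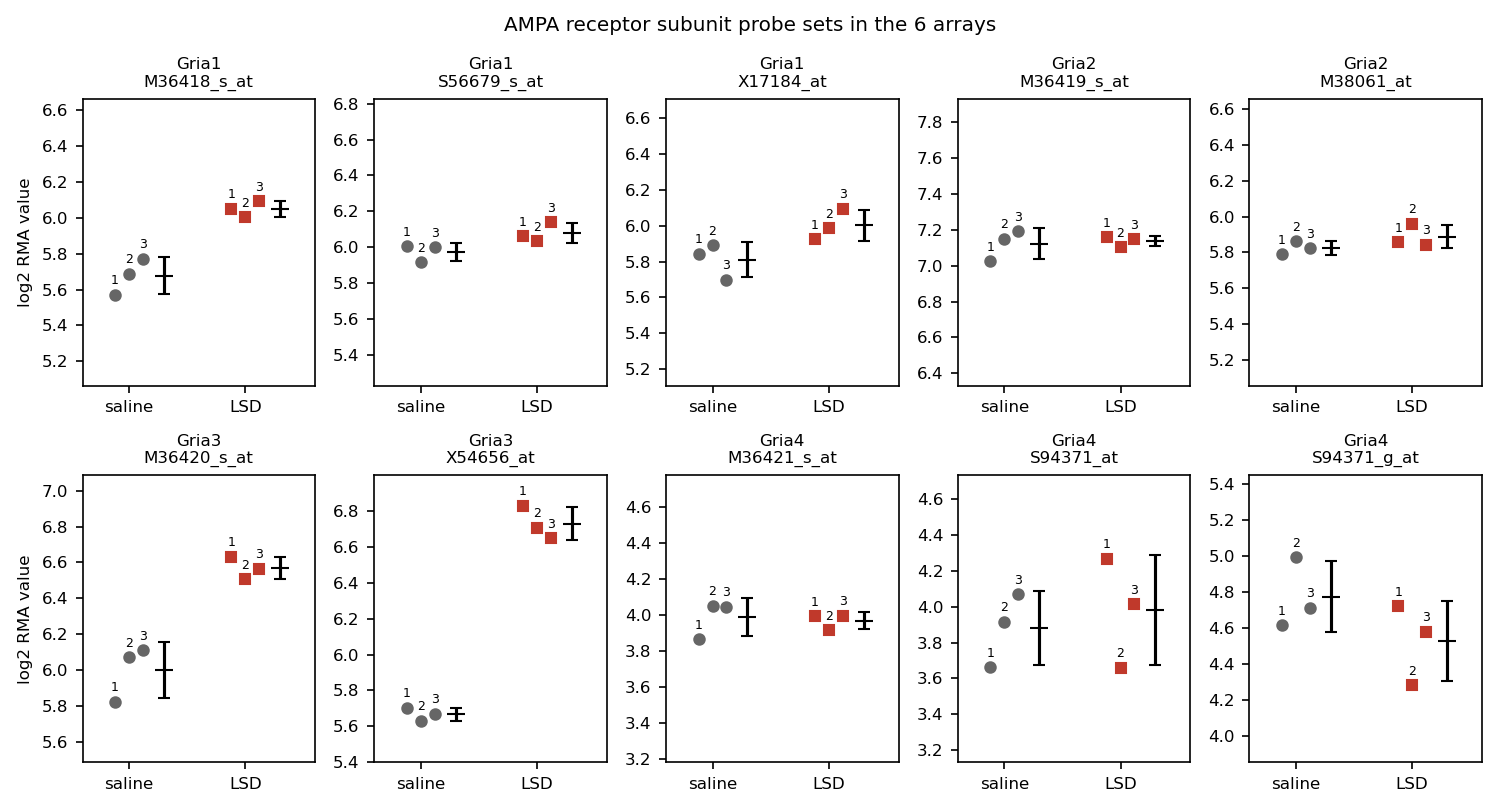
Log2 RMA values (vertical axis, with the same span in every panel) of the 10 AMPA receptor subunit probe sets, with 1 numbered point per array, saline as grey circles and LSD as red squares, and black bars for the mean and SD (n = 3). All LSD points lie above all saline points in both Gria3 and all 3 Gria1 panels, and the groups overlap in the Gria2 and Gria4 panels.

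Gria3 showed the largest difference of the family. In its probe set X54656_at the level was 5.70, 5.63 and 5.67 log2 units on Saline 1, 2 and 3, and 6.83, 6.71 and 6.65 on LSD 1, 2 and 3. The lowest LSD array stood 0.95 log2 units above the highest saline array, and the arrays of each group lay close together (SD 0.036 in saline and 0.093 in LSD, n = 3). The difference was 1.06 ± 0.085 log2 units (SE), or 2.09-fold with a 95% interval from 1.82 to 2.39. Leaving out 1 array at a time kept it between 1.01 (without LSD 1) and 1.10 (without LSD 3).

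The second Gria3 probe set, M36420_s_at, was at 5.82, 6.07 and 6.11 on the saline arrays and at 6.63, 6.51 and 6.57 on the LSD arrays. Its groups did not overlap either, with a gap of 0.40 log2 units, but Saline 1 lay well below the other saline arrays. The difference was 0.57 ± 0.10 log2 units (SE), or 1.48-fold (95% interval 1.26 to 1.74), and it was 0.48 without Saline 1. Probe sets with the suffix _s_at may hybridise with more than one transcript, and how much of this signal came from Gria3 is uncertain.

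The Gria3 probe sets thus shared a direction but not a size. Within each array, X54656_at minus M36420_s_at was -0.12, -0.44 and -0.44 log2 units on Saline 1, 2 and 3, and 0.20, 0.20 and 0.084 on LSD 1, 2 and 3. The order of these readings was turned on every LSD array, and the mean difference moved by 0.49 log2 units, from -0.33 ± 0.19 to 0.16 ± 0.066 (SD, n = 3). Levels of different probe sets are not comparable as amounts of RNA, so the shift says only that both did not change by the same factor on the RMA scale. Transcripts that only 1 of them reads were not examined here.

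Gria1 differed less, and in the same direction. Its probe set M36418_s_at was at 5.57, 5.69 and 5.77 log2 units on the saline arrays and at 6.05, 6.002 and 6.09 on the LSD arrays. The groups were separated by 0.23 log2 units, and the difference was 0.37 ± 0.088 (SE), or 1.29-fold (95% interval 1.12 to 1.49). Without Saline 1, the lowest of the 6, it was 0.32.

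The other Gria1 probe sets were separated by less than the spread of a single group. In X17184_at the saline arrays read 5.84, 5.89 and 5.70 and the LSD arrays 5.93, 5.99 and 6.09, a difference of 0.19 ± 0.092 log2 units (SE), with a gap of 0.036 between the groups. In S56679_s_at, the brightest of the Gria1 probe sets, the values were 6.01, 5.92 and 6.001 against 6.06, 6.03 and 6.14, a difference of 0.10 ± 0.081 (SE) with a gap of 0.027. The 95% intervals of both included 0. After cyclic loess scaling 1 of these separations was lost, that of S56679_s_at.

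As in Gria3, the probe sets of Gria1 moved by unequal amounts. M36418_s_at minus S56679_s_at was -0.44, -0.23 and -0.23 log2 units within the saline arrays and -0.011, -0.031 and -0.048 within the LSD arrays, without overlap. Between M36418_s_at and X17184_at the differences overlapped, with 0.073 on Saline 3 above LSD 2 (0.016) and LSD 3 (-0.0025). Between X17184_at and S56679_s_at they overlapped too.

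**Figure D2:**
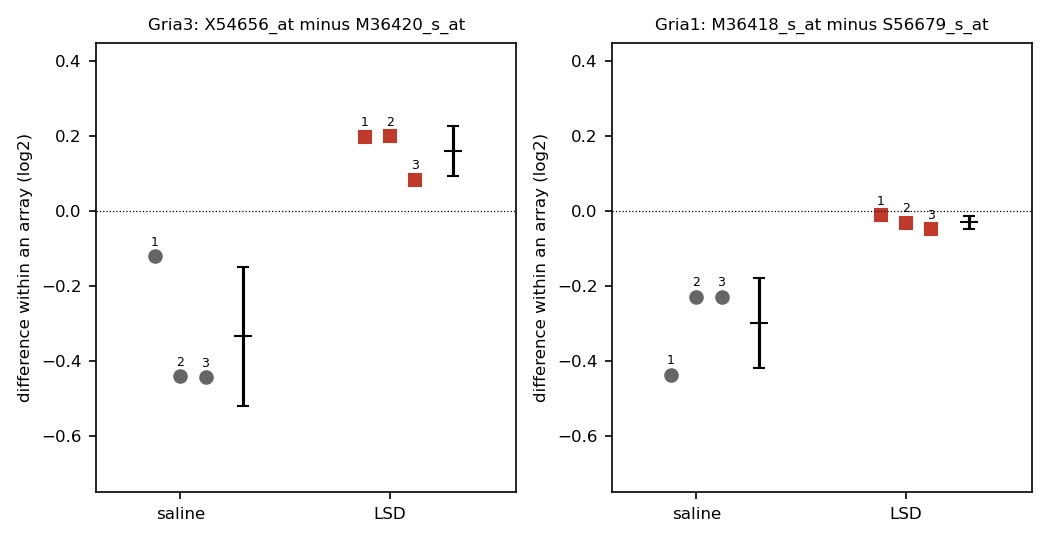
Difference between 2 probe sets of the same gene within each array (vertical axis, log2 units) for Gria3 on the left and Gria1 on the right, with 1 numbered point per array, saline as grey circles and LSD as red squares, and black bars for the mean and SD (n = 3). For Gria3 all saline points lie below 0 and all LSD points above it, and for Gria1 the saline points run from -0.44 to -0.23 and the LSD points from -0.048 to -0.011.

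Gria2, whose product sets the calcium permeability of the receptor, overlapped between the groups in both of its probe sets. Its probe set M36419_s_at was at 7.02, 7.15 and 7.19 log2 units on the saline arrays and at 7.16, 7.10 and 7.15 on the LSD arrays. The LSD values lay inside the saline range, and the difference was 0.01 ± 0.084 (SE), with a 95% interval from -0.18 to 0.21. It was -0.03 without Saline 1. In M38061_at the values were 5.79, 5.86 and 5.82 on the saline and 5.86, 5.96 and 5.84 on the LSD arrays. Here LSD 2 was the highest array while the others overlapped, and the difference was 0.06 ± 0.081 (SE, 95% interval -0.12 to 0.25). The upper bounds of both intervals correspond to a 1.16-fold and a 1.19-fold higher level.

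The Gria4 probe sets were dim and scattered, at the 21.7th, 21.0th and 34.6th percentile of the mean levels of all tested probe sets. M36421_s_at was at 3.87, 4.05 and 4.05 log2 units on the saline arrays and at 3.99, 3.92 and 3.996 on the LSD arrays, a difference of -0.02 ± 0.088 (SE). The LSD arrays lay inside the saline range. S94371_at read 3.66, 3.92 and 4.07 in saline and 4.27, 3.66 and 4.01 after LSD, so that LSD 1 was the highest and LSD 2 the lowest of all arrays. Its difference of 0.10 ± 0.17 (SE) turned to -0.05 without LSD 1 and to -0.20 with array weights. S94371_g_at, designed on the same sequence record and therefore not independent of it, read 4.61, 4.99 and 4.71 in saline and 4.72, 4.28 and 4.58 after LSD. Its difference was -0.25 ± 0.14 (SE, 95% interval -0.58 to 0.08), and the groups overlapped. Within arrays, S94371_at minus S94371_g_at moved from -0.89 ± 0.22 in saline to -0.55 ± 0.085 after LSD (SD, n = 3) without overlap, so that a shift between probe sets of 1 gene was also present where the gene itself overlapped between the groups. RMA compresses the folds of dim probe sets, which limits what the Gria4 values can show.

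**Figure D3:**
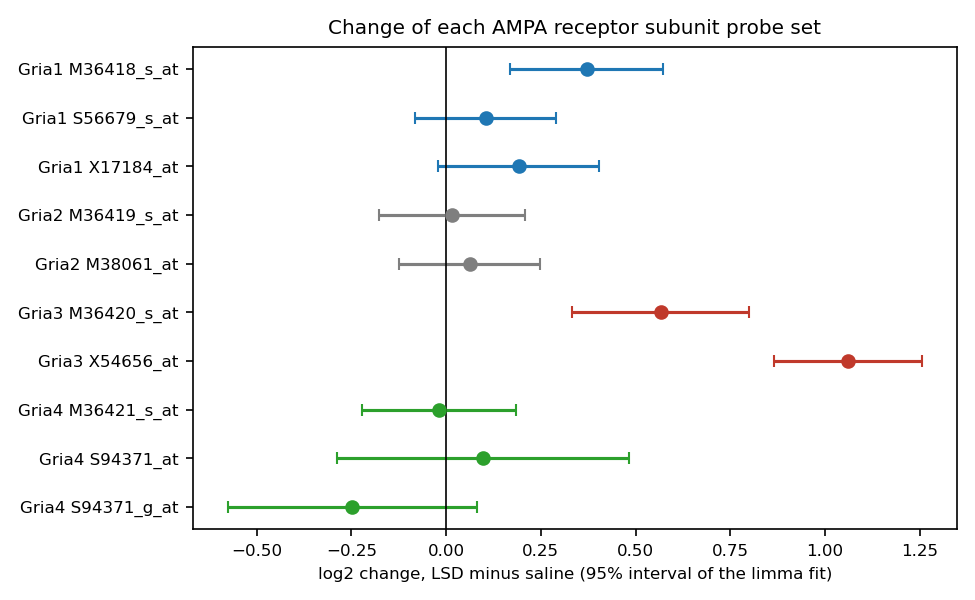
LSD minus saline on the log2 scale (horizontal axis) for the 10 AMPA receptor subunit probe sets, where points are limma estimates and lines their 95% intervals (n = 3 arrays per group), coloured by gene. The intervals of both Gria3 probe sets and of the Gria1 probe set M36418_s_at lie above 0, and the other 7 include 0. Because the family was chosen on this comparison, these positions are not a test.

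With the brightest probe set of each gene, which the study's methods keep, the gene-level log2 changes were 0.10 for Gria1, 0.01 for Gria2, 0.57 for Gria3 and -0.25 for Gria4. With the most variable probe set they were 0.37, 0.01, 1.06 and 0.10, and with the mean of the probe sets 0.22, 0.04, 0.81 and -0.06. The choice of probe set moved the values of Gria3 and Gria1 by more than the spread between arrays and turned the sign of Gria4. Gria3 kept the highest value of the family under all 3 choices.

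The 4 probe sets with consecutive names, M36418_s_at, M36419_s_at, M36420_s_at and M36421_s_at, read 1 gene of the family each and deviated together within the groups. Saline 1 lay 0.11, 0.098, 0.18 and 0.12 log2 units below the saline mean in Gria1, Gria2, Gria3 and Gria4. In all 4, Saline 2, Saline 3 and LSD 1 lay above and LSD 2 below their group mean. This pattern of signs was found in 5 of the 10 members and in 11.1% of all tested probe sets, and it was noticed after the values were seen. The fifth member was S94371_at of Gria4. The remaining Gria1, Gria2 and Gria3 probe sets did not follow it, and 3 of those 4 were above the saline mean on Saline 1, M38061_at being the exception. Whether these probe sets share signal from related transcripts was not tested.

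**Figure D4:**
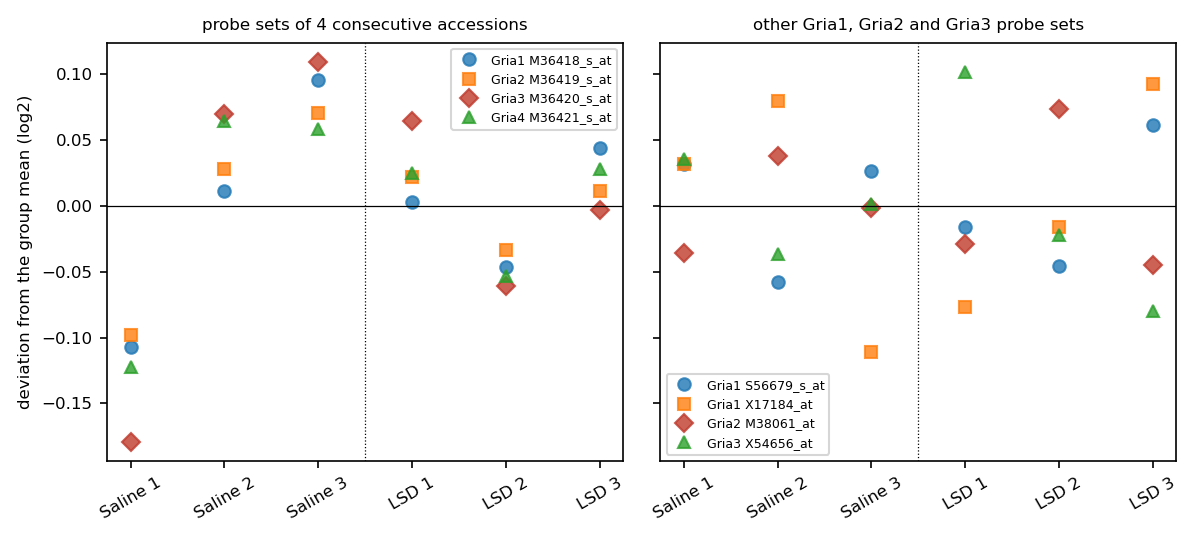
Deviation of each array from the mean of its group (vertical axis, log2 units) for the 4 probe sets with consecutive names on the left and for the other Gria1, Gria2 and Gria3 probe sets on the right, with 1 symbol per probe set and arrays along the horizontal axis. On the left all points of Saline 1 lie between -0.18 and -0.098, and on the right the points of every array lie on both sides of 0.

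Other probe sets with 1 symbol were ranked by the likeness of their profile to Gria3 over the 6 arrays. Closest to X54656_at were Syt4 (Pearson r = 0.996), a synaptotagmin of dense-core vesicles, Mycbp2 (0.994), a ubiquitin ligase of axons, Scd2 (0.991), a fatty acid desaturase, Atp2a2 (0.990), a calcium pump of the endoplasmic reticulum, and Ina (0.985), a neurofilament protein. Closest to M36420_s_at were Spire1 (0.992), an actin nucleator, the ribosomal protein gene Rpl13a (0.991), Azin1 (0.987), a regulator of polyamine synthesis, the folate carrier Slc19a1 (0.985) and the cytoskeletal protein gene Add3 (0.985). No gene was on both lists. All 10 probe sets had higher values on every LSD array, with log2 changes from 0.09 (Rpl13a) to 0.53 (Ina), and 0 passed in limma. These are values of single probe sets, not of genes. Another Atp2a2 probe set differed by -0.04, against 0.14 in the listed one, and another Scd2 probe set by 0.99, against 0.46. Among the 6996 probe sets compared, 30 had r above 0.95 with X54656_at and 28 with M36420_s_at. With 6 arrays in groups that separate, the step between the groups raises such values. For deviations from the group means, r with X54656_at ran from -0.12 (Ina) to 0.896 (Syt4) over its list. With M36420_s_at it ran from 0.91 (Rpl13a) to 0.959 (Add3). Both lists were picked by r on these same arrays, so nothing is read from these values.

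AMPA receptors work with a large set of partners. These were taken from lists of auxiliary subunits and assembly factors, proteins that bind the receptor tails, and extracellular clustering proteins. Further lists held endocytosis and recycling machinery, kinases and phosphatases, and RNA editing and splicing factors together with some transcription regulators. Of 169 listed genes 103 were measured, and 0 passed the adjusted threshold in limma with the brightest probe set of each gene, beside 0.0211% of all genes. An unadjusted p below 0.05 was found for 8 of the 103, beside 3.21% of all genes. The groups did not overlap in 12 with LSD higher (6.97% of all genes) and in 6 with LSD lower (3.34%). The median log2 change was 0.02, beside 0.0056 over all genes. No probe set of these genes passed when all 168 were counted.

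Among tail-binding proteins, 9 of 18 measured genes were nominally higher and 9 lower. Dlg1, which encodes the scaffold SAP97 that binds the tail of GluA1, was at 4.90 ± 0.070 in saline and 5.30 ± 0.14 log2 units in LSD arrays (SD, n = 3), a difference of 0.39 that did not pass (limma adjusted p = 0.772). Its other probe sets differed by 0.11 and 0.14. The syntenin gene Sdcbp differed by 0.13 and the scaffold gene Shank1 by -0.19 (limma adjusted p = 0.981 for both). Grip1 and Grip2, whose products bind the tails of GluA2 and GluA3, differed by 0.02 and -0.02. Nsf, the fusion ATPase that binds GluA2, differed by 0.13.

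Extracellular clustering proteins had 7 of 11 measured genes nominally higher. Nptx1, a neuronal pentraxin that gathers AMPA receptors, differed by 0.27 ± 0.088 (SE, limma adjusted p = 0.981), and its further probe sets by -0.03 and -0.09. The neurexin gene Nrxn3 differed by 0.22 ± 0.097 (SE, limma adjusted p = 0.981). Sparc, a secreted glial protein that lowers AMPA receptors at synapses, differed by -0.55 ± 0.10 (SE, limma adjusted p = 0.302) in its brightest probe set, from 11.22 ± 0.15 in saline to 10.68 ± 0.091 after LSD (SD, n = 3). It passed only with an intensity trend and robust prior or with array weights. Its 3 further probe sets differed by -0.21, -0.11 and 0.21.

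Endocytosis and recycling genes had 23 of 30 nominally higher, beside 2448 of all 4736 genes, with a median of 0.05. The groups did not overlap in 5 of the 30 with LSD higher (6.97% of all genes) and in 2 with LSD lower (3.34%). Arc, an activity-induced protein that removes AMPA receptors from synapses, differed by 0.23 ± 0.085 log2 units (SE, limma adjusted p = 0.981) and did not overlap between the groups. The adaptor subunit Ap2a2 differed by 0.19, and Exoc4, a subunit of the exocyst, by -0.42 ± 0.20 (SE, limma adjusted p = 0.981) at a dim level. None passed.

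Kinases and phosphatases had 18 of 29 measured genes nominally lower. Ppp3r1, the regulatory subunit of calcineurin, which dephosphorylates GluA1, differed by 0.33 ± 0.092 (SE, limma adjusted p = 0.874), and its second probe set by 0.25. The kinase gene Camk2d differed by -0.28 and the phosphatase gene Ppp1cc by -0.27 (limma adjusted p = 0.981 for both). Further probe sets of Camk2d ran from -0.22 to 0.04.

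The list of RNA editing and splicing factors had 6 of 13 nominally higher. It also held general regulators of expression, such as the transcription factor Sp4 and the RNA-binding protein Fmr1. Khdrbs1 differed by 0.21, Sp4 by -0.15 and Fmr1 by -0.14 (limma adjusted p = 0.981 for each). Adarb1, the enzyme that edits the Gria2 transcript, differed by 0.07. Auxiliary subunits were hardly covered, with 2 of 23 measured. Cnih2, a cornichon that slows the closing of AMPA receptors, differed by -0.24 (limma adjusted p = 0.981), and Olfm1 by -0.0030 (0.996), with a second Olfm1 probe set at -0.26.

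**Figure D5:**
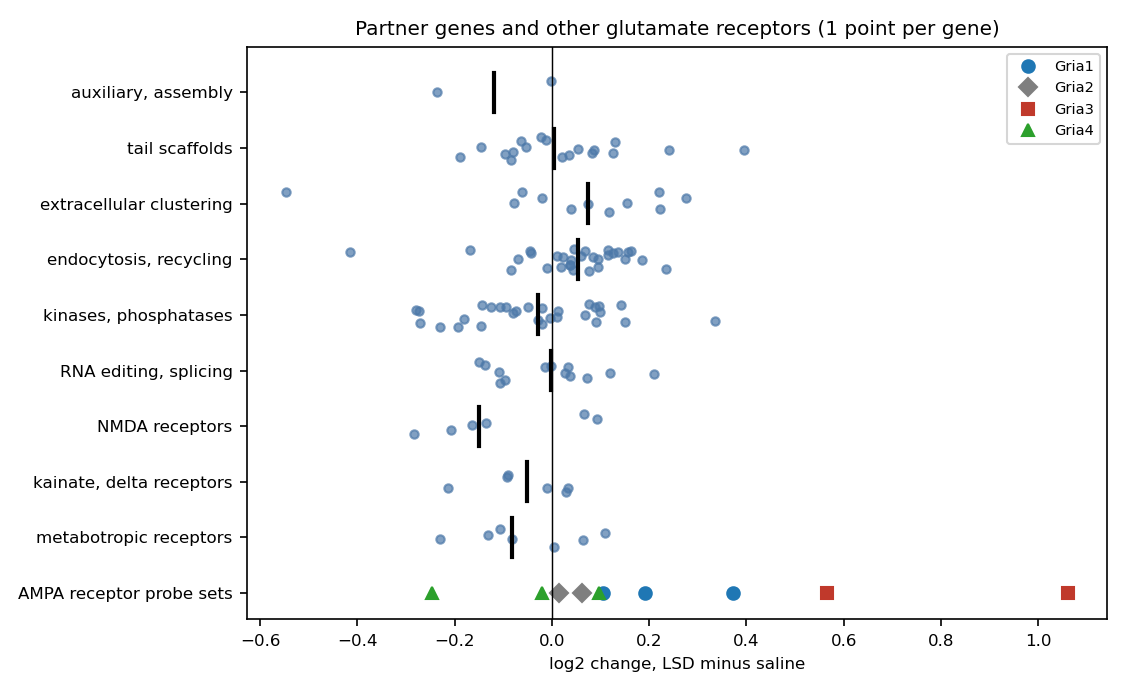
LSD minus saline on the log2 scale (horizontal axis) for partner genes and of the other glutamate receptor genes, with 1 point per gene (its brightest probe set), lists along the vertical axis and black bars for list medians, above all 10 AMPA receptor probe sets by gene. Points of the 9 lists lie between -0.55 and 0.39, and the Gria3 probe sets lie at 0.57 and 1.06.

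None of the other glutamate receptor genes passed. Of 19 measured, by the brightest probe set of each gene, 7 had a higher and 12 a lower mean after LSD. The median difference was -0.09 log2 units and the highest 0.11. In limma 0 passed, beside 0.0211% of all genes, and 1 (Grik1) had an unadjusted p below 0.05, beside 3.21%. Of all 30 probe sets of these genes 0 passed. By the brightest probe set 0 of the 4 AMPA receptor genes passed either, since the Gria3 probe set that passed was not the brightest of its gene. Among the 19 other glutamate receptor genes, the groups were separate in 0 with LSD higher and in 3 with LSD lower. The shares of all genes were 6.97% and 3.34%. NMDA receptor subunits had 2 of 6 higher, with Grin2d at -0.28 and 0.19 in its 2 probe sets, Grin2b at -0.21 and Grin2c at -0.16. Among kainate and delta receptors, Grik1 differed by -0.21 ± 0.090 (SE, limma adjusted p = 0.981), and Grik5 and Grid1 by -0.09 each. Among metabotropic receptors Grm5 differed by 0.11, Grm7 by -0.13 and Grm6 by -0.23. The difference between these families and the AMPA receptor subunits was not tested.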

How the data were processed

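Raw arrays were normalised by the authors with RMA from the affy package (version not given in the sources used here), which corrects background, equalises the distributions of the arrays and summarises each probe set, and they deposited log2 values. These ran from 2.11 to 12.9, with correlations between arrays from 0.984 to 0.996. Equalised distributions hide changes shared by most transcripts. Arrays have no read depth, and their number limits the precision. After 59 control probe sets were left out, 8740 of 8799 entered a two-sided comparison of the groups by limma 3.58.1 (R 4.3.3), fitted with lmFit and eBayes without covariates, and p-values were adjusted after Benjamini-Hochberg over all 8740 (threshold 0.05). Symbols came from the platform annotation (7006 probe sets with 1 symbol, 308 with several, 1426 with none). Coordinates are not given, since the files name no genome build, and probe or protein sequences were not used here. Partner genes were named if they passed, or as the 3 of lowest p per list (other genes named beside them were added after their values were seen), and like profiles as the 5 of highest r. The members and lists were chosen with earlier results of these data known. In 20 simulations with 8740 probe sets, 200 of them changed, 58.8% of those changed 1.5-fold and 88.2% of those changed 2-fold were recovered, with 4.49% false calls. The simulated noise was normal and independent between probe sets, without an outlying array. With 200 changes the adjusted threshold is also easier to pass than with the 6 calls found here. These rates therefore check the code and are not the recovery or error rates of this comparison.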

Additional observations from a re-analysis of the deposited data

How the results depend on the processing

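The difference of the Gria3 probe set X54656_at lay between 1.01 and 1.10 log2 units over 13 alternatives and that of M36420_s_at between 0.45 and 0.62. The 3 Gria1 probe sets kept their sign. Some alternatives could not move a difference, since they fit the same values on all arrays. These were the restriction to probe sets above the median level, the intensity trend with robust prior and the replicate block. The number of members without overlap and with LSD higher was 5 of 10 with all arrays. It was 4 after cyclic loess, 6 without Saline 2 and 5 under the other alternatives. With probe sets above the median level, it was 5 of the 7 members kept. The intensity trend, array weights and replicate block leave the array values as they are, so this count could not change there. With 1 array left out, groups separate more easily. The share of all probe sets without overlap was not counted for the alternatives, so nothing is read from these counts. With LSD lower it was 0, except for 1 without Saline 1 and 1 without LSD 1. Calls were less stable. Over all probe sets 16 passed above the median level (8 higher, 8 lower), 20 with an intensity trend and robust prior (7 and 13), and 42 with array weights (21 and 21), against 6. Array weights added M36420_s_at, which made 2 Gria calls, and array weights and the intensity trend with robust prior each called 1 partner gene, Sparc. Without 1 array, 0 to 3 probe sets passed overall and 0 to 1 among the members. The latter count was 1 without Saline 1 and 0 without any 1 of the other 5 arrays. With the replicate number as a block 0 probe sets passed, 0 of them Gria, while 262 had an unadjusted p below 0.05. Whether arrays of the same number form pairs is not known. Their deviations from the group means correlated at -0.0175, -0.232 and 0.175. Of the saline arrays only Saline 3 was most like the LSD array of its own number. With 3 arrays per group these values cannot decide whether the numbers mark pairs. An exact Wilcoxon rank sum test per probe set gave 0 calls, since 3 arrays against 3 cannot go below p = 0.1. The causes were not tested.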
